A study of Mus musculus with 2 samples.

Results

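CD122 (encoded by Il2rb), a signalling chain that the interleukin 2 and interleukin 15 receptors share, was examined with the receptor chains and kinases that work beside it. The set held 10 genes. Of these, 7 encode receptor chains (Il2rb, Il2rg, Il2ra, Il7r, Il15ra, Il4ra and Il21r) and 3 encode signalling proteins (Jak1, Jak3 and Stat5b). A probe was taken if either scanner file gave it 1 of these symbols, which found 21 of the 41174 different probes that are not controls. Of the 21 probes, 11 carried the member's name in both files and 10 in 1 file, since the files name some probes differently. None was saturated or marked as an outlier.

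The series is titled as a study of CD8+CD122+ regulatory T cells. CD8+CD122+ and CD8+CD122- cells were sorted from spleens of C57BL/6 mice, and their messenger RNA was amplified. Both populations were hybridised together on each of 2 two-colour Agilent arrays. Array 1 carried CD8+CD122+ in Cy5 and CD8+CD122- in Cy3, and array 2, a second trial, had the dyes exchanged. Age, sex and number of mice, the sorting gates and any treatment were not given in the sources used here. Whether the mice of the second trial were new ones is not stated, so each SD measures only the spread between these 2 arrays. Each p-value rests on that spread and on the spread of all kept probes between the same 2 arrays. Ratios were more widely spread on array 2 (SD over all kept probes 0.323 in log2) than on array 1 (0.209). An exact two-sided sign-flip test of 2 arrays cannot give a p below 0.5, so the p-values here come from limma's fit across all probes.

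Receptors for interleukins 2, 4, 7, 15 and 21 share the common gamma chain, encoded by Il2rg, and each adds its own chain or chains. The receptors for interleukins 2 and 15 also share CD122. Ligand binding brings together JAK1, bound to the signalling partner of the gamma chain, and JAK3, bound to the gamma chain. For interleukins 2 and 15 that partner is CD122. These kinases phosphorylate STAT proteins such as STAT5. In CD8 T cells, interleukin 7 is known for the survival of naive cells and interleukin 15, presented by the alpha chain IL-15R alpha on other cells, for the upkeep of memory cells.

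Il2rb, the gene of the sorted protein, stood apart from every other member. Its 1 probe (A_51_P286496, listed at chr15:78531965-78532024 on the minus strand) gave mean spot signals of 9033 in CD8+CD122+ and 1012 in CD8+CD122- on array 1, and of 4432 and 1405 on array 2. The signal of CD8+CD122+ was the higher under either dye. After normalisation the log2 ratio of CD8+CD122+ over CD8+CD122- was 2.60 on array 1 and 2.34 on array 2. The series' own value table has the opposite direction. The mean was 2.47 ± 0.18 (SD, n = 2 arrays), or 5.56-fold, and 99.9% of the 30794 kept probes had a lower mean. Limma's adjusted p was 0.264, and limma called 0 probes of any gene at an adjusted p under 0.05 (0% of all kept probes). At an unadjusted p under 0.05 it found 6.12% of all kept probes. Because the cells were sorted on CD122, this value checks the labels and is no finding. With median centring in place of loess, the Il2rb ratios were 3.09 on array 1 and 1.90 on array 2. Genome coordinates are those listed in the scanner file of array 2, and the sources used here name no build for them.

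A rule of size was set beside limma: both arrays had to reach 2-fold, and with the same sign. Il2rb was the 1 of 18 kept member probes that was 2-fold higher, where 0.253% of all kept probes were, and 0 were 2-fold lower, where 0.0812% were. At 1.5-fold the counts were again 1 higher and 0 lower, against 0.630% and 0.296% of all kept probes. Of the 18 probes, 7 were above 0 on both arrays, 5 below 0 on both and 6 had opposite signs, where 27.8% of all kept probes were above 0 on both and 25.6% below. The median log2 ratio over the 10 genes, each by its brightest probe, was 0.09, and 0.03 over the 9 without the sort marker Il2rb, beside 0.01 over all 21947 genes. In bulk RNA, a difference in the share of cells that express a gene and a difference in RNA per cell cannot be told apart. The plot of log2 ratios by probe shows the spread among the members.

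**Figure D1:**
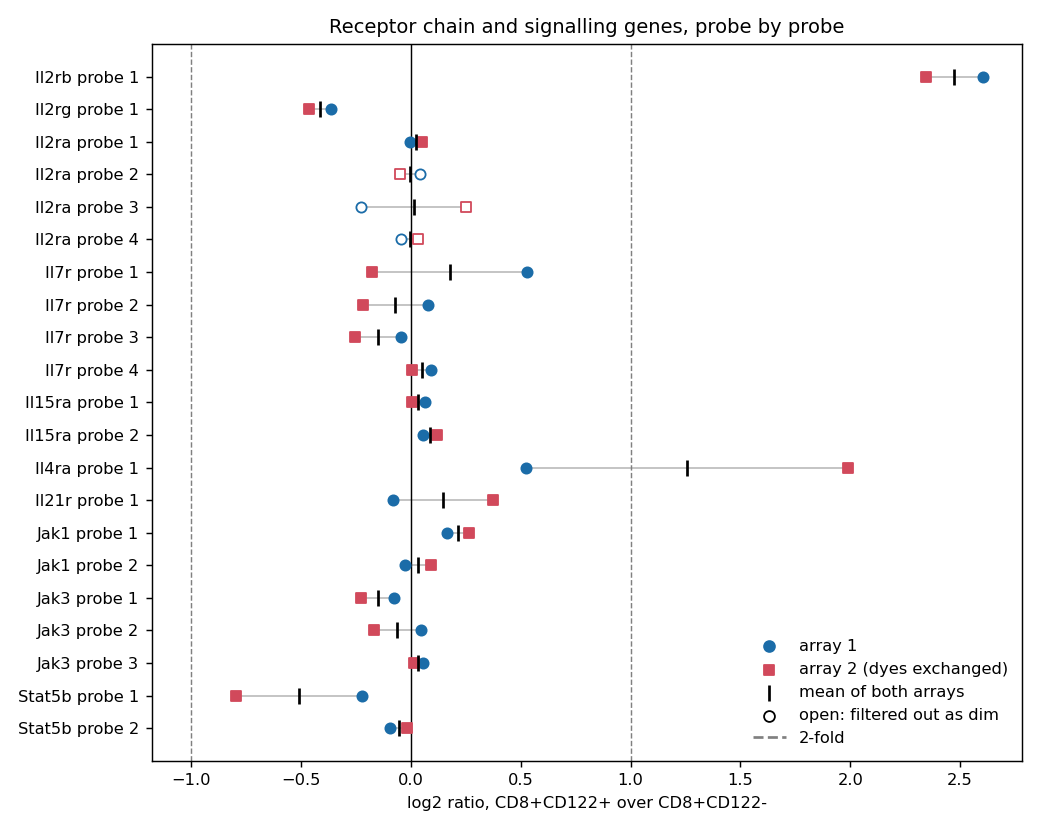
Log2 ratios of CD8+CD122+ over CD8+CD122- (x axis) for the 21 probes of the 10 genes (rows), with array 1 as circles, array 2 as squares and their mean as a black tick. Open symbols mark the 3 Il2ra probes left out as dim, dashed lines mark 2-fold, and Il2rb alone lies beyond 2-fold on both arrays.

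The 5 named probes of other genes whose pair of log2 ratios lay nearest to that of Il2rb belonged to Ly6c1, 5830411N06Rik, Gzmm, Ahnak and Runx2. Likeness was the Euclidean distance over the 2 arrays. It ran from 0.0867 for Ly6c1, a surface antigen gene, to 0.442 for Runx2, a transcription factor gene. Gzmm, a granzyme gene, lay at 0.272. With 2 arrays this measure only names probes with similar ratios.

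The second member far from 0 was Il4ra, which encodes the alpha chain shared by the receptors for interleukin 4 and interleukin 13. Its 1 probe (A_51_P464478, chr7:119627355-119627414, plus strand) had mean spot signals of 1092 in CD8+CD122+ and 579 in CD8+CD122- on array 1, and of 2192 and 876 on array 2. CD8+CD122+ was again the higher population on both arrays, but the size differed. The log2 ratio was 0.52 (1.44-fold) on array 1 and 1.99 (3.97-fold) on array 2. The mean was 1.26 ± 1.04 (SD, n = 2 arrays), or 2.39-fold, with limma's adjusted p at 0.841 and its unadjusted p at 0.0642. The probe passed neither the 2-fold nor the 1.5-fold rule, since array 1 fell short of both. With median centring in place of loess the arrays gave 0.87 and 1.57, and the probe passed the 1.5-fold rule, where 0.633% of all kept probes were higher. Its gap between arrays was exceeded by 0.390% of all kept probes. On array 1 alone 98.8% of kept probes had a lower ratio, and on array 2 alone 99.8%. On array 2 alone 1.09% of kept probes were at least 2-fold higher and 0.711% lower, and on array 1 alone 0.354% and 0.136%. Over 5 ways to correct background and normalise, the ratio ran from 0.51 to 0.87 on array 1 and from 1.57 to 2.10 on array 2. The gap between the arrays was 1.54 at most, and 0.70 with median centring, where it was smallest. Its source was not tested.

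**Figure D2:**
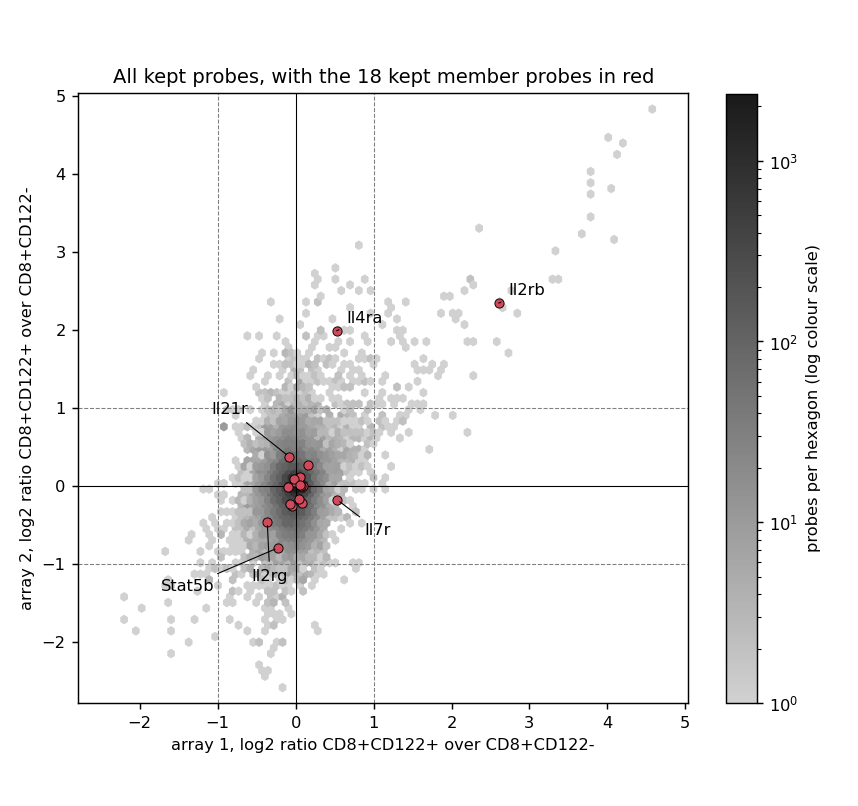
Log2 ratio on array 2 (y axis) against array 1 (x axis) for 30794 kept probes, as hexagons shaded by the number of probes on a log scale, with the 18 kept member probes in red and dashed lines at 2-fold. After loess, Il2rb lies near equal values on both arrays (2.60 and 2.34), whereas Il4ra lies at 0.52 and 1.99. With median centring, which is not plotted, the values were 3.09 and 1.90 for Il2rb, and 0.87 and 1.57 for Il4ra.

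Il2rg, the common gamma chain used by all receptors of this family, was lower in CD8+CD122+ on both arrays by a small amount. Its 1 probe (A_51_P456952, chrX:95867045-95867558, minus strand) had spot signals of 311 in CD8+CD122+ and 331 in CD8+CD122- on array 1, and of 340 and 642 on array 2. The listed span of 514 bases is longer than the probes that lie in a single block of 60 bases. The log2 ratio was -0.36 on array 1 and -0.46 on array 2, with a mean of -0.41 ± 0.07 (SD, n = 2 arrays), or 1.33-fold lower. The arrays lay closer together than for Il4ra or Il2rb. The error that the scanner software gives to its own log2 ratio of this spot was 0.169 on array 1 and 0.174 on array 2, beside scanner ratios of -0.45 and -0.51. Limma's adjusted p was 0.641 and its unadjusted p 0.0087, and 2.32% of all kept probes had a lower mean. Of the 18 kept member probes, 3 had an unadjusted p of limma under 0.05. They were 2 higher (Il2rb and the brightest Jak1 probe), where 2.62% of all kept probes were, and 1 lower (Il2rg), where 3.49% were. With median centring in place of loess the arrays gave -0.12 and -0.80, still below 0 on both.

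Il7r, the interleukin 7 receptor alpha chain (CD127), is a marker of naive and memory T cells and was measured by 4 probes. The brightest (A_51_P196695, chr15:9319706-9319765, minus strand) had spot signals of 2430 in CD8+CD122+ and 1191 in CD8+CD122- on array 1, and of 2559 and 4599 on array 2. The higher spot signal was thus in the Cy5 channel on both arrays. The log2 ratio was 0.53 on array 1 and -0.18 on array 2, and the mean was 0.18 ± 0.50 (SD, n = 2 arrays; limma's adjusted p 0.935). The arrays disagreed in sign, and they did so under each of the 5 normalisations. The other 3 probes lay 4967, 6594 and 22749 bases from the first on the same strand. Their mean log2 ratios were -0.07, 0.05 and -0.15, and the largest of these sizes, for the farthest probe, was below 0 on both arrays (-0.04 and -0.26). The probes at 6594 and 22749 bases carried the name Il7r in the file of array 1 alone. Both were dim, with spot signals between 102 and 178. No direction for Il7r was therefore shared by its probes and arrays.

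The stretches of 250 bases before the start sites of these 3 receptor genes are shown because their ratios differed in kind: higher on both arrays, lower on both, and opposite. They come from RefSeq (GRCm38.p6), which gave 11 entries for 9 of the 10 members. Il2rb was not matched. Capitals mark matches on either strand to the STAT motif TTCNNNGAA, the T-box motif GGTGTGA or the ETS motif GGAAGT, none of which overlapped here. Lower case throughout means that these letters were not found in this window. The Il4ra stretch is chr7:125552021-125552270 (plus strand), that of Il2rg chrX:101268256-101268505 (minus strand) and that of Il7r chr15:9529877-9530126 (minus strand).
Il4ra: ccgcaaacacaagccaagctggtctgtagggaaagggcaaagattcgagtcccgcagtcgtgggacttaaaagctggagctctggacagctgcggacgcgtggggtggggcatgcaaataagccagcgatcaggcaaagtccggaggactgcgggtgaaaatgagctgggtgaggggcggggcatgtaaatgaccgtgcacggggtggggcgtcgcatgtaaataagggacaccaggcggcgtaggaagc
Il2rg: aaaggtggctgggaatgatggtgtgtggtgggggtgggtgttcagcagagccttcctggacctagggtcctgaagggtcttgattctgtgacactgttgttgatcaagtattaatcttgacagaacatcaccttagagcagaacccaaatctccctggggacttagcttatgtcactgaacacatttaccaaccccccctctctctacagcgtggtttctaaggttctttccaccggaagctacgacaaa
Il7r: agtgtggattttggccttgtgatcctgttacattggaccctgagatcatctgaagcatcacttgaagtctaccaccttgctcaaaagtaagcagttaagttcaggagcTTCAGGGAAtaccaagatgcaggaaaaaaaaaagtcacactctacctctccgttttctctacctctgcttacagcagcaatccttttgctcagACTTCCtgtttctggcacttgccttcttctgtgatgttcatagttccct
The Il7r stretch held a STAT match that begins 142 bases before the start site and an ETS match that begins 49 bases before it. Of all 32851 promoter stretches of this length, 7.02% held the STAT motif, 3.33% the T-box motif and 19.7% the ETS motif. Among the 11 entries of the members, 1 held the STAT motif (Il7r), 0 the T-box motif and 3 the ETS motif (Il7r, Il2ra and 1 of the Stat5b entries). A match is a description of the letters and not a binding site.

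The private chains for interleukins 2, 15 and 21 gave mean log2 ratios near 0 by their kept probes. Il2ra, the alpha chain that raises the affinity of the interleukin 2 receptor (CD25), had 4 probes. The brightest, which the scanner file describes as part of the 3' end of the transcript, passed the scanner's background test in every channel. It carried the name Il2ra in the file of array 2 alone. Its signals were 194 in CD8+CD122+ and 180 in CD8+CD122- on array 1, and 199 and 238 on array 2. The log2 ratio was -0.01 on array 1 and 0.05 on array 2 (mean 0.02 ± 0.04, SD, n = 2 arrays; limma's adjusted p 0.969). The other 3 Il2ra probes, some of them named Il2ra in both files, did not pass the filter. They were not well above background in either population, except 1 probe in CD8+CD122+ on array 2 alone. The offset of 50 pulls ratios of such dim spots toward 0, so they do not show equal levels. That 1 probe had log2 ratios of -0.22 and 0.25 here, but of 1.51 and 1.63 in the scanner's processed signals, with scanner errors of 1.21 and 2.22.

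Il15ra encodes the alpha chain that binds interleukin 15 with high affinity. Its 2 probes had mean log2 ratios of 0.03 ± 0.04 and 0.09 ± 0.04 (SD, n = 2 arrays each), both above 0 on both arrays. The first had a spot signal of 216 in CD8+CD122+ and 187 in CD8+CD122- on array 1, and of 238 and 307 on array 2. With median centring both probes turned below 0 on array 2 (-0.24 and -0.09). Limma's adjusted p was 0.955 and 0.904. Il21r, the receptor chain for interleukin 21, had spot signals of 419 in CD8+CD122+ and 361 in CD8+CD122- on array 1, and 575 and 654 on array 2. Its log2 ratio was -0.08 on array 1 and 0.37 on array 2 (0.15 ± 0.32, SD, n = 2 arrays; limma's adjusted p 0.929). The sign differed between the arrays, and 11.0% of all kept probes had a larger gap between arrays. With median centring the ratios were 0.19 and 0.01, of the same sign.

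**Figure D3:**
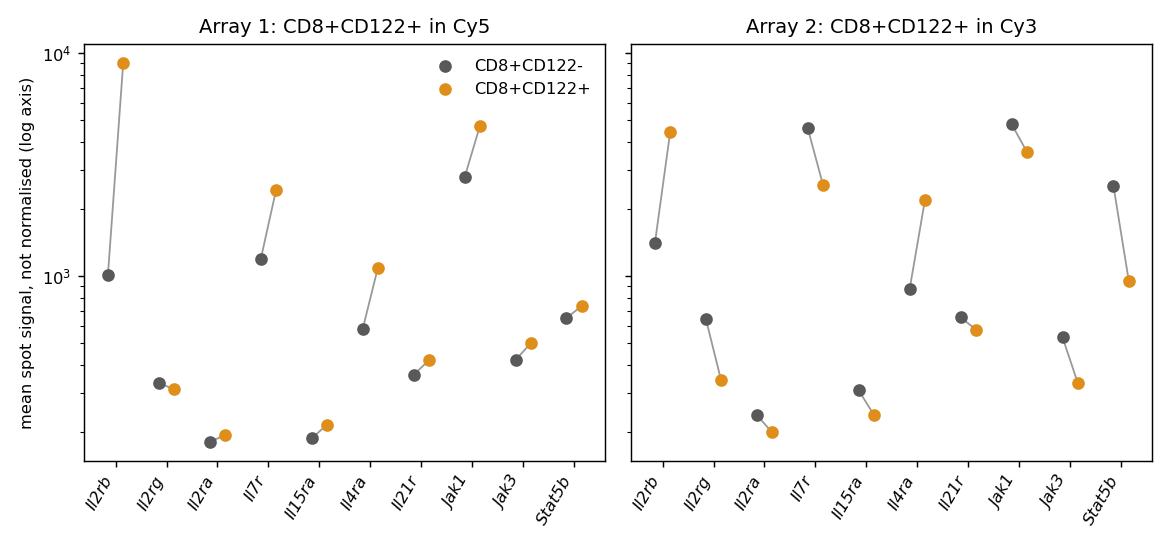
Mean spot signals without normalisation (log axis) of CD8+CD122- (grey) and CD8+CD122+ (orange) for the brightest kept probe of each of the 10 genes, with array 1 left and array 2 right. Levels of different genes are not comparable; within a gene, Il2rb and Il4ra rise from grey to orange on both arrays, and most others slope up on array 1 and down on array 2, where the dyes were exchanged.

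The kinases differed little. Jak1, the kinase of the chains that pair with the gamma chain, had 2 probes. The brightest (A_51_P256642, chr4:100112095-100112154, minus strand) had spot signals of 4707 in CD8+CD122+ and 2769 in CD8+CD122- on array 1, and of 3610 and 4805 on array 2. After normalisation its log2 ratios were close, at 0.16 and 0.27, with a mean of 0.21 ± 0.07 (SD, n = 2 arrays), or 1.16-fold. Limma's adjusted p was 0.814 and its unadjusted p 0.0497, and with median centring array 2 turned to -0.19. The other probe lay 3276 bases away and was listed on the opposite strand. It carried the name Jak1 in the file of array 1 alone, and its mean was 0.03 ± 0.08.

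Jak3, the kinase of the gamma chain, had 3 probes with mean log2 ratios of -0.15 ± 0.11, -0.06 ± 0.15 and 0.03 ± 0.03 (SD, n = 2 arrays each). The brightest had spot signals of 501 in CD8+CD122+ and 420 in CD8+CD122- on array 1, and of 332 and 531 on array 2. It was below 0 on both arrays (-0.07 and -0.23), with limma's adjusted p at 0.873, and turned to 0.21 on array 1 with median centring. This probe is named Jak3 in the file of array 1 and Insl3 in that of array 2. Insl3, a hormone gene, overlaps the end of Jak3 in the RefSeq annotation, so the signal cannot be assigned to Jak3 alone. The second probe, 223 bases away and named Jak3 in both files, had opposite signs on the arrays (0.05 and -0.17). The third, 3482 bases away, was above 0 on both (0.05 and 0.01), and with median centring turned to -0.14 on array 2.

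Stat5b, a transcription factor activated by these receptors, was lower in CD8+CD122+ by its brightest probe, named Stat5b in the file of array 2 alone. That probe (A_52_P53698, chr11:100601873-100601932, minus strand) had spot signals of 735 in CD8+CD122+ and 648 in CD8+CD122- on array 1, and of 953 and 2533 on array 2. The log2 ratio was -0.22 (1.17-fold lower) on array 1 and -0.79 (1.73-fold lower) on array 2. The mean was -0.51 ± 0.40 (SD, n = 2 arrays), or 1.42-fold lower, with limma's adjusted p at 0.841 and 1.40% of all kept probes lower. With median centring array 1 turned to 0.10, so the direction held on array 2 in all 5 normalisations and on array 1 in 4. The other probe, 6555 bases away and named Stat5b in both files, gave -0.06 ± 0.05. Its signals were near background, with 122 and 132 on array 1 and 146 and 167 on array 2, and its ratios were -0.09 and -0.02. Both probes were below 0 on both arrays, and the size seen by the brightest was not shared by the other.

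The 9 members other than Il2rb held no kept probe beyond 1.5-fold on both arrays, except Il4ra with median centring. Over these 9 the median size of the mean log2 ratio, by brightest probe and without regard to sign, was 0.18, beside 0.06 over all genes. Their median gap between arrays was 0.15, beside 0.12 over all genes. Neither contrast with all genes was matched for brightness, and the offset understates ratios of dim probes. The part of brightness in these contrasts was not tested.

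Other genes of the pathway were followed in lists. The list of other receptor chains also held genes of cytokine receptors outside this family, among them Ifngr1, Ifngr2 and Il18r1. Of 8 ligand genes 5 were tested, and 0 passed the rule of size in either direction (median log2 ratio 0.02). Il7, Il9 and Il21 were on the array but did not pass the filter. Of 9 tested genes for other receptor chains, 1 was 2-fold higher on both arrays and 0 lower (median 0.11). Among all genes by brightest probe 0.310% were higher and 0.105% lower. The higher gene was Ifngr1, the ligand-binding chain of the interferon gamma receptor, at 1.28 on array 1 and 2.15 on array 2 (1.71 ± 0.62, SD, n = 2 arrays). At 1.5-fold, 2 were higher and 1 lower, where 0.743% and 0.369% of all genes were. These were Ifngr1, Il18r1 (2.04 and 0.93) and Ifngr2 (-1.67 and -0.87), the last 2 named after their values were seen. Other probes of Il18r1 and Ifngr2 reached -0.10 and 0.24 as mean log2 ratios. Crlf2, which pairs with the interleukin 7 receptor alpha chain in the receptor for TSLP, had 0.33 and 0.61.

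Of 18 other kinases, STATs and adaptors, 0 passed 2-fold, and 3 were above 0 on both arrays, 9 below and 6 of opposite signs (median -0.05). Stat5a, the near relative of Stat5b, had -0.52 on array 1 and 0.48 on array 2. Of 13 tested inhibitors, 0 passed 2-fold and 2 were 1.5-fold higher, Socs3 (0.72 and 0.93) and the phosphatase gene Ptpn2 (0.61 and 0.77), both named after their values were seen. Cish, an inhibitor that STAT5 induces, had 0.58 on array 1 and 2.51 on array 2. Among 18 target genes of STAT5 or interleukin 2, 0 passed 2-fold and 1 was 1.5-fold higher, the glucose transporter gene Slc2a1 (mean 1.15 ± 0.50, SD, n = 2 arrays), named after its values were seen. Of these targets 11 were above 0 on both arrays, 4 below and 3 of opposite signs, with a median of 0.25 beside 0.01 over all genes. Taken by single array, the target median came to 0.27 (array 1) and 0.09 (array 2). Among all genes 29.2% were above 0 on both arrays, 24.1% were below, and 0.743% were 1.5-fold higher. The targets were not split by whether the pathway raises or lowers them, so neither counts nor medians measure its activity. Cish and Socs2 stand in both of the last lists.

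Regulators of receptor chain genes were a further list. Of 12 tested, 2 were 2-fold higher on both arrays and 0 lower (median -0.06), where 0.310% and 0.105% of all genes were. These 2 were the T-box factors that are known to act on Il2rb. Tbx21, the gene of T-bet, had 2.27 and 1.37 (1.82 ± 0.64, SD, n = 2 arrays; 3.53-fold), and Eomes had 1.63 and 1.02 (1.33 ± 0.43; 2.51-fold). Limma's adjusted p was 0.624 for Tbx21 and 0.617 for Eomes. Foxo1, known to act on Il7r, had -0.40 and 0.15. Gabpa, an ETS family factor that is also known to act on Il7r, had -0.10 and -0.19 by its brightest probe, while another of its 3 probes had a mean of 0.31. The plot of the pathway lists shows each gene with both arrays.

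**Figure D4:**
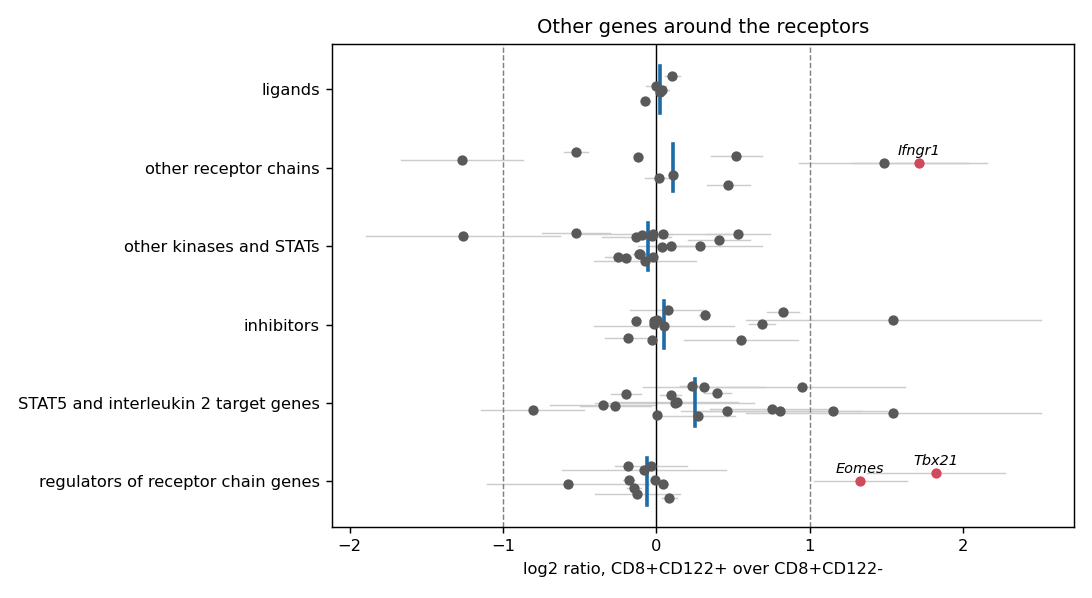
Mean log2 ratio of CD8+CD122+ over CD8+CD122- (x axis, dots) for the tested genes of 6 lists (rows), each by its brightest probe, with a grey line between the values of the 2 arrays, a blue bar at the list median and dashed lines at 2-fold. The named genes in red (Ifngr1, Tbx21 and Eomes) passed 2-fold on both arrays.

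Markers of the sorted and of other cell types were measured beside Il2rb, since NK cells also bear CD122. All 11 markers of CD8 T cells passed the scanner's background test in each population and on each array. Cd8a had log2 ratios of -0.31 and -0.91, and Cd8b1 of -0.48 and -0.86. Of 8 NK cell markers, 6 were well above background on both arrays in CD8+CD122+ and 5 in CD8+CD122-. Ncr1, the marker that defines NK cells best, was not well above background in either population on either array. Nfil3, a transcription factor gene that T cells also express, was the 1 of 6 tested NK markers 2-fold higher (1.11 and 2.05). Among all genes 0.310% were 2-fold higher and 0.743% were 1.5-fold higher. At 1.5-fold there were 2 NK markers, the other being Klre1, a receptor gene of NK cells, named after its values were seen. It was well above background in CD8+CD122+ on both arrays and in CD8+CD122- on neither. Its signal above local background in CD8+CD122+ was 90.3 on array 1 and 68.8 on array 2, and its less bright probe had a mean log2 ratio of 0.01. The summed NK marker signal above local background, without normalisation, was 1897 in CD8+CD122+ and 1011 in CD8+CD122- on array 1, and 2114 and 1354 on array 2. Nfil3 made up 1088 and 357 of these sums on array 1, and 1292 and 445 on array 2. The count at least 2-fold higher or lower was 0 of 3 tested CD4 T cell markers, 0 of 8 B cell, 0 of 9 myeloid and 0 of 3 erythroid markers. The summed B cell signal was 832 in CD8+CD122+ and 796 in CD8+CD122- on array 1, and 949 and 1291 on array 2. The myeloid sum was 1264 and 1040 on array 1, and 1844 and 2363 on array 2. The erythroid sum was 1218 and 908 on array 1, and 2402 and 3273 on array 2, while the CD4 T cell sum lay between 93.9 and 225. In the CD8 T cell, B cell, myeloid and erythroid sums the Cy5 channel was the brighter on both arrays. The part of cells other than CD8 T cells in the ratios of the receptor genes was not tested.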

How the data were processed

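The submitters' processing notes name Agilent Feature Extraction. Per the file headers, array 1 was read with its version A.7.5.1, and 8.1.1.1 served array 2. Per the file headers, the authors' files hold spot and background intensity on a linear scale, flags, dye-normalised processed signals and log10 ratios of Cy5 over Cy3 with their errors. The deposited value table holds the same log10 ratios, with the sign of array 1 reversed, and has CD8+CD122- as numerator throughout. Both of its medians are 0, and its centring stays unknown.

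Here mean intensities were corrected with normexp (offset 50) and log2 ratios normalised by loess within each array, with control spots at weight 0 (limma 3.58.1, R 4.3.3). Signs were turned to CD8+CD122+ over CD8+CD122-. Outlier spots were left out and spots of a probe averaged. A probe was kept if well above background in the same population on both arrays (30794 of 41174). The offset understates ratios of dim probes. limma (lmFit, eBayes, two-sided, 1 residual degree of freedom) was adjusted by Benjamini-Hochberg over all kept probes. Genes in lists were named through a RefSeq table (GRCm38.p6), for which 32016 probes matched, and stand for their brightest probe. The number of arrays limits the precision. The steps were tested on simulated data.

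The members and lists were chosen with earlier results of these data known. All members were named, list genes at 2-fold or more on both arrays, and the 5 probes nearest to Il2rb. Genes past 1.5-fold alone, and a few pathway genes given for their role, were named after their values were seen. The result of 1 pathway gene is not reported here. Alternatives in background correction, normalisation, filter, variance model, probe summary and arrays were tried.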

Additional observations from a re-analysis of the deposited data

How the results depend on the processing

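Il2rb stayed at least 2-fold higher in every setting tried. Its mean log2 ratio over both arrays ran from 2.44 to 2.54, with an adjusted p of limma between 0.133 and 0.445. The single arrays varied more. Over the 5 normalisations the Il2rb ratio ran from 2.57 to 3.09 on array 1 and from 1.90 to 2.41 on array 2. Mean log2 ratios of the kept member probes held their side of 0 in each setting that used both arrays. Alternatives in filter, outlier spots and variance model left these ratios unchanged, so they could not move a side. The deposited value table gave the same ratios as the scanner's processed signals. On single arrays some sides changed, such as for the brightest Il7r probe (0.53 on array 1 and -0.18 on array 2). Limma called 0 member probes in each setting where it was run. The count of member probes at least 2-fold higher was 1 in each setting with both arrays, and it ran from 1 to 2 when a single array was left out, Il4ra joining on array 2 alone. The count of lower member probes was 0 throughout. Over all genes, the 78 higher and 25 lower probes became 199 and 85 with the scanner's processed signals and with the deposited value table, and 120 and 42 with a normexp offset of 16. The lower count was 16 probes with median centring. With the mean of all probes of a gene it was 15 genes, beside 23 genes by their brightest probe. With 1 array left out, the counts ran from 109 to 336 higher and from 42 to 219 lower. Limma called 0 probes in each setting where it was run but the offset of 16, where it called 6, none of them a member. The cause of these shifts was not tested, apart from the single array left out. Beyond the ratios themselves, no paired analysis was possible because each array's ratio already pairs the populations, as does limma's fit of these ratios, and no further block was left to fit. Ratios of dim probes, such as 3 of Il2ra, moved with the background correction. Il4ra passed 1.5-fold on both arrays with median centring alone among the 5 normalisations.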
